A study of Schizocosa ocreata with 10 samples.

Results

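The haemocyanin genes of the wolf spider Schizocosa ocreata were examined in RNA from the brains of individual spiders. A gene was included when its annotation held a Swiss-Prot match named Hemocyanin or the Pfam domain PF00372 and when it was present in the count table, which gave 18 of 25922 genes. The 10 libraries came from 2 immature (subadult) females, 3 immature males, 3 mature (adult) females and 2 mature males, all untreated, and replicates keep the numbers of their labels. The spiders were caught in the wild as subadults and then kept 1 by 1 in the laboratory. Brains of mature animals were taken 24 hours past their final molt, whereas the time left to that molt was not known for the immature animals. The brain was cut out of the surrounding muscle and may hold part of the esophagus, according to the labels. Genes matching proteins of neurons took 0.199% to 0.479% of the reads per library, and each of the 41 was detected in every library. Genes matching muscle proteins took 8.31% to 18%. Each library held between 3481348 and 11789754 reads assigned to genes, and expression was estimated as read counts per gene, given here as CPM, the count scaled to a common library size.

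Haemocyanin is the copper protein that carries oxygen in the hemolymph of spiders and many other arthropods. A haemocyanin chain has an all-alpha domain at its start, a middle domain that holds the copper ions and binds oxygen, and an immunoglobulin-like domain at its end, and chains join into hexamers and multiples of these. The chains of tarantulas are named by letters, and AA6 is a chain of the scorpion Androctonus australis. In tarantulas haemocyanin is made by blood cells and released into the hemolymph. The phenoloxidases of insects, which oxidize phenols during melanin formation, and the hexamerins, which store amino acids, belong to the same protein superfamily.

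The 18 genes lay on 15 contigs of the transcriptome assembly, and their annotated reading frames covered between 345 and 1917 nucleotides. The best match of the translated nucleotide sequence was Hemocyanin G chain for 13 genes, Hemocyanin AA6 chain for 3 (Gene000605, Gene011085 and Gene021639), Hemocyanin F chain for 1 (Gene001318) and Hemocyanin E chain for 1 (Gene010464). In 12 genes the match lay on the strand opposite to the reading frame, so that the predicted protein is not haemocyanin although the contig carries haemocyanin sequence. Over all counted genes with such a match, 2279 of 15488 (14.7%) had it on the opposite strand. Only 5 genes had a predicted protein that matched haemocyanin itself. The remaining gene, Gene009222, matched on its own strand without a match of its protein, and its reading frame lay wholly within that of Gene013926, with which it shares 351 nucleotides of contig Contig36053. The library protocol in the labels names no step that marks strand, and reads from either strand cannot be told apart in the counts. Positions below are on contigs of that assembly. Whether the 18 genes stand for 18 loci was not tested.

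Gene010463 carried the longest frame, at positions 61 to 1977 on the minus strand of contig Contig29202. Its predicted protein matched residues 5 to 625 of Hemocyanin G chain and held all 3 domains of the family, Hemocyanin_N, Hemocyanin_M (the copper domain) and Hemocyanin_C. With 47.51% identity it was also the most distant match to a haemocyanin of the 18 genes. Its closest Drosophila protein was the phenoloxidase PPO1, with 40.13% identity. Gene010464 runs the other way on Contig29202, overlapped it by 315 nucleotides and matched Hemocyanin E chain at 56.82% identity. The other 16 genes matched at 65.48% to 87.3% identity, and each covered only part of a chain. Gene000605, at positions 3 to 605 of a transcript assembled from mature female 2, matched residues 230 to 430 of the AA6 chain with 67.16% identity. It held part of the copper domain, 138 residues against 258 in Gene010463. Gene012930 also held part of the copper domain, with 140 residues (match to residues 170 to 310 of the G chain, 76.6% identity). Gene021639 and Gene001318 held 110 and 107 residues of the terminal Hemocyanin_C domain, against 246 in Gene010463. Of the partial genes, 5 matched the G chain from residue 3 onward and so cover the same stretch of the protein.

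**Figure D1:**
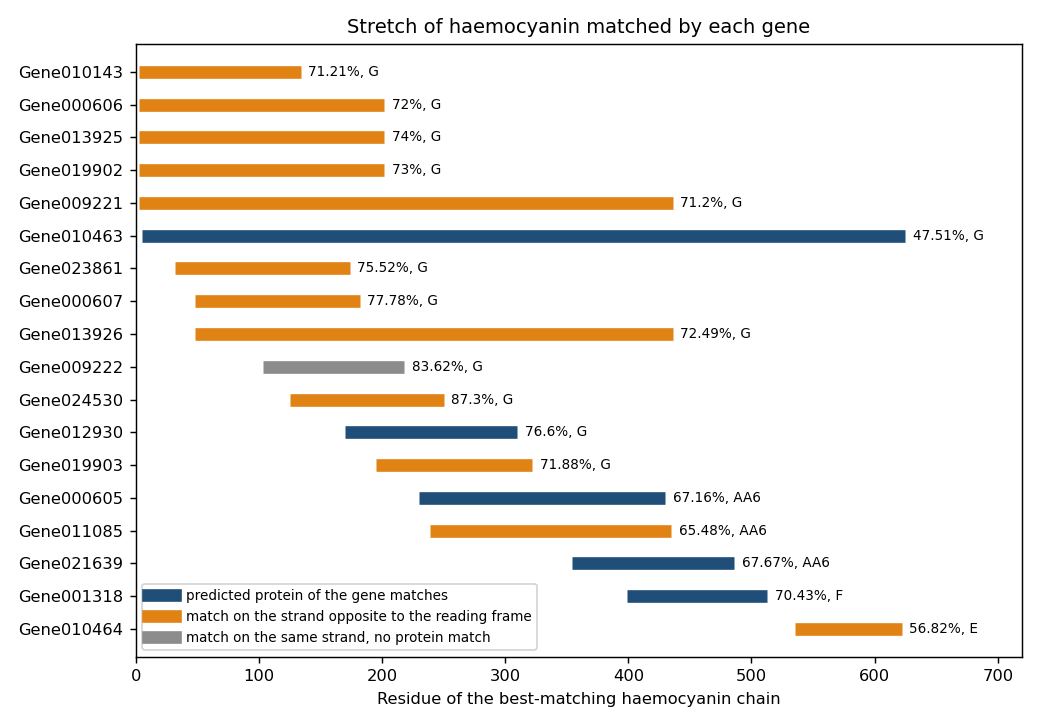
Residues of the best-matching haemocyanin chain (horizontal axis) covered by each of the 18 genes (rows), with the identity and the name of the chain beside each bar. Dark bars mark the 5 genes whose predicted protein matches, orange bars the 12 genes with a match on the opposite strand and the gray bar Gene009222; Gene010463 spans residues 5 to 625 and the other genes cover parts of the chain.

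Together the 18 genes held 288024 of 85689458 reads, and their share differed 168-fold between the highest and the lowest library. Immature female 3 supplied 64.9% of all haemocyanin reads, mature male 2 supplied 13.5%, immature female 2 supplied 13.4%, and the other 7 libraries together supplied 8.19%. The share of reads was 0.335% (0.331% to 0.338%) in immature female 2 and 2.05% (2.04% to 2.06%) in immature female 3, where the range in parentheses is the 95% Wilson interval and covers counting error only. It was 0.0198% (0.0186% to 0.0211%), 0.1% (0.0974% to 0.103%) and 0.0831% (0.0812% to 0.085%) in the immature males. In the mature females it was 0.0122% (0.0116% to 0.0129%), 0.0435% (0.0414% to 0.0458%) and 0.0458% (0.0445% to 0.047%), and in mature males 2 and 3 it was 0.39% (0.386% to 0.394%) and 0.0135% (0.0127% to 0.0142%). Immature female 3 was thus highest, and mature male 2 and immature female 2 followed. In each group the highest and the lowest library differed far beyond counting error, while the intervals of mature females 2 and 3 overlapped. Within groups the share differed 6.13-fold between the immature females, 5.05-fold among the immature males, 3.74-fold among the mature females and 28.9-fold between the mature males. In bulk tissue, fewer cells of a type and less RNA per cell cannot be told apart.

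**Figure D2:**
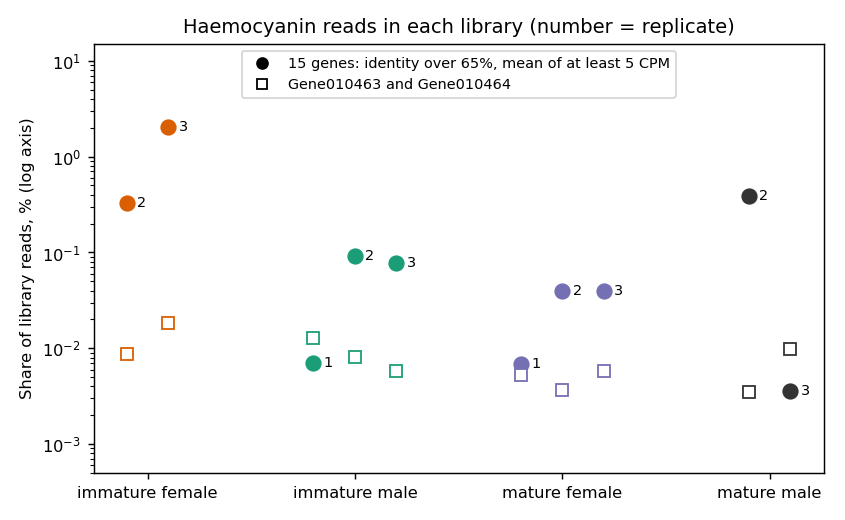
Share of library reads (percent, log axis) in the 10 libraries by group, as 1 point per library without error bars. Filled circles are the 15 genes with identity over 65% and a mean of at least 5 CPM, which ran from 0.00362% to 2.03%; open squares are Gene010463 with Gene010464, which ran from 0.00353% to 0.0184%.

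Gene000605, with part of the copper domain and a best match to AA6, held 73.2% of all haemocyanin reads. Gene000605 was at 2175 and 15142 CPM in the immature females, at 53.9, 697 and 574 in the immature males, at 58.7, 328 and 332 in the mature females, and at 2743 and 25.8 in the mature males. The lowest library was mature male 3 and the highest immature female 3, which differed 587-fold. Its group levels were 8658 ± 9169 CPM (SD, n = 2) in immature females, 442 ± 341 CPM (SD, n = 3) in immature males, 239.7 ± 157 CPM (SD, n = 3) in mature females and 1385 ± 1922 CPM (SD, n = 2) in mature males, so the SD exceeded the mean in both groups of 2 libraries. Relative to the length of the annotated frame its mean level was 3670 CPM per kb, against 1.71 to 282 CPM per kb in the other 17 genes. A gene here is a cluster of coding sequences of which only 1 is annotated, so the length of a longer sequence in the cluster is not accounted for in this value.

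The next 3 genes by mean level carry their haemocyanin match on the opposite strand. Gene011085 was at 142 and 1171 CPM in the immature females, at 3.36, 60.6 and 55.8 in the immature males, at 1.29, 13.8 and 19.9 in the mature females, and at 198 and 1.97 in the mature males. It matches residues 239 to 435 of AA6, nearly the same stretch as Gene000605, which includes part of the copper domain. Gene000606 was at 137 and 1075 CPM in the immature females, at 4.54, 57.6 and 53.4 in the immature males, at 2.47, 18.4 and 21.4 in the mature females, and at 175 and 1.18 in the mature males. Gene013925 was at 85.6 and 749.7 CPM in the immature females, at 1.58, 38.1 and 25.2 in the immature males, at 3.54, 15.7 and 19.6 in the mature females, and at 124 and 2.26 in the mature males. Both match residues 3 to 202 of the G chain, which is the first part of the protein. In these 3 genes, as in Gene000605, the immature females and mature male 2 were the 3 highest libraries, and immature male 1, mature female 1 and mature male 3 were the 3 lowest. The same 3 libraries were highest and the same 3 lowest in all 15 genes with identity over 65% and a mean of at least 5 CPM. This set was chosen after the values were seen, so its shared order is a description. Some of the 15 reach that mean only through the highest libraries, such as Gene024530 with a median of 1.55 CPM.

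The remaining genes with this order lay at lower levels. Gene009221 was at 79.1 and 327 CPM in the immature females, at 1.78, 10.9 and 22.1 in the immature males, at 2.36, 14.8 and 6.14 in the mature females, and at 58 and 0.787 in the mature males. Gene013926 was at 56 and 281 CPM in the immature females, at 0, 11 and 13.3 in the immature males, at 1.71, 6.15 and 2.98 in the mature females, and at 70.6 and 0.492 in the mature males. Gene012930 was at 40.4 and 288 CPM in the immature females, at 0, 4.34 and 4.09 in the immature males, at 2.79, 5.23 and 3.07 in the mature females, and at 45.8 and 0 in the mature males. These include the 2 longest partial matches, to residues 3 to 436 (Gene009221) and 48 to 436 (Gene013926) of the G chain. A count of 0 allows up to 0.593 CPM in immature male 1 and up to 0.295 CPM in mature male 3, taking 3 reads as the floor. Gene019902 was at 48 and 222 CPM in the immature females, at 0.988, 4.18 and 8.88 in the immature males, at 1.71, 6.46 and 5.24 in the mature females, and at 24.1 and 0.394 in the mature males. Gene023861 was at 33.1 and 208 CPM in the immature females, at 0.79, 3.68 and 5.61 in the immature males, at 0.965, 3.69 and 2.62 in the mature females, and at 24.6 and 0.394 in the mature males. Gene019903 was at 27 and 165 CPM in the immature females, at 0.79, 3.51 and 2.8 in the immature males, at 0.643, 1.84 and 2.26 in the mature females, and at 20.5 and 0.197 in the mature males. All 3 match the G chain on the opposite strand, and all 3 had their highest level in immature female 3 and their lowest in mature male 3. Gene009222 was at 20.1 and 148 CPM in the immature females, at 0.395, 5.68 and 5.26 in the immature males, at 0.322, 5.53 and 0.993 in the mature females, and at 30.02 and 0.492 in the mature males. Gene000607, Gene021639, Gene010143 and Gene024530 had means of 10.8 to 21.1 CPM, all with their highest value, 77.4 to 159 CPM, in immature female 3.

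Gene001318, the match to the F chain, had only 57 reads in all libraries together, between 0 and 18 reads per library. Its highest level, 1.68 CPM, was in mature male 2. With so few reads its levels carry a large counting error.

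Across the 10 libraries the 15 genes with identity over 65% and a mean of at least 5 CPM followed each other closely. Pearson's r of log2(CPM + 0.5) lay between 0.90 and 0.99 over the 105 pairs of genes, with a median of 0.96, and Spearman's rho had a median of 0.93. These values are a description, since the set was chosen after its values were seen. The genes also share libraries, depth and partly the same stretches of haemocyanin. How reads that fit several genes were assigned is not given in the sources used here. The proportions between the genes were less constant than their order. Reads on Gene000606 were between 4.2% and 9.29% of those on Gene000605, those on Gene011085 between 2.19% and 9.72%, and those on Gene009221 between 1.56% and 4.49%. For Gene000606 and Gene011085 the highest value was in immature male 3 and the lowest in mature female 1. Gene010463 did not follow the 15 genes, with an r between 0.00 and 0.25, while its r with the overlapping Gene010464 was 0.93.

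**Figure D3:**
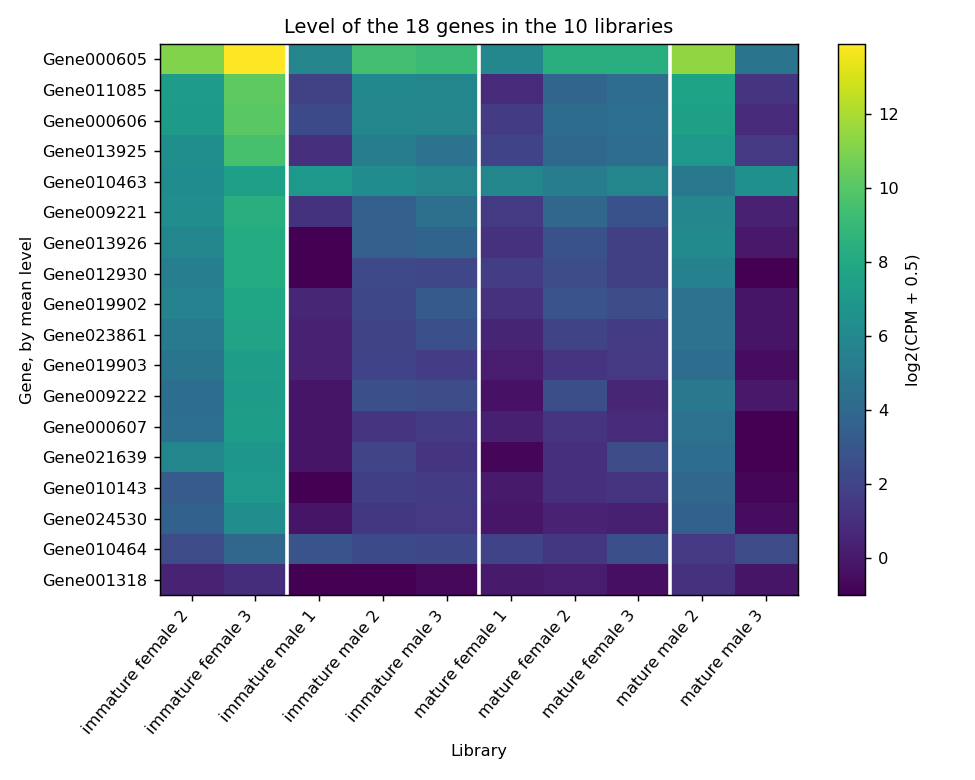
Level of the 18 genes (rows, by mean level) in the 10 libraries (columns, by group), as log2(CPM + 0.5) on the color scale. Immature female 3 is bright over nearly all rows and immature female 2 and mature male 2 follow, while Gene010463 stays between 30.6 and 169 CPM in all libraries.

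Gene010463 was at 74.8 and 169 CPM in the immature females, at 120.1, 76 and 54.7 in the immature males, at 56.3, 37.5 and 56.1 in the mature females, and at 30.6 and 88 in the mature males. Its highest and lowest libraries, immature female 3 and mature male 2, differed 5.52-fold. Group levels were 122 ± 66.6 CPM (SD, n = 2) in immature females, 83.6 ± 33.4 CPM (SD, n = 3) in immature males, 49.97 ± 10.8 CPM (SD, n = 3) in mature females and 59.3 ± 40.6 CPM (SD, n = 2) in mature males, and the groups overlapped except the females of the 2 stages. In immature male 1 and mature male 3, where the 15 genes were low, Gene010463 held 61.2% and 69% of the haemocyanin reads, against 0.827% in immature female 3 and 0.845% in mature male 2. Mature male 2, the library with the most haemocyanin among the mature ones, thus had the lowest level of this gene. Gene010464, which shares part of its sequence, ran from 2.15 to 14.5 CPM.

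The study compared immature with mature spiders within each sex. In females, 17 of the 18 genes were lower in every mature library than in every immature library, against 14.4% of the 24930 genes tested. The exception was Gene010464. The median log2 fold change (mature against immature) was -5.44 over the 18 genes and -0.02 over all genes. The log2 fold change of Gene000605 was -5.18 with an SE of 1.71 (edgeR's quasi-likelihood test, adjusted p = 0.422 by Benjamini-Hochberg over all genes). Gene024530 had the lowest adjusted p of the 18 genes in edgeR (adjusted p = 0.33), at -6.06 with an SE of 1.40. Gene010463 differed less, at -1.28 with an SE of 0.52 (edgeR, adjusted p = 0.469). The quasi-likelihood test called 0 of the 18 genes at an adjusted p under 0.05, where it called 0% of all genes. At an unadjusted p under 0.05, 17 of the 18 were lower in mature females, against 5.88% of all genes. The 15 genes follow each other closely (median r 0.96), so counts here and in the comparisons below do not rest on independent genes. The likelihood ratio test of edgeR, which the study used, called 6 of the 18 lower, against 1.18% of all genes in either direction, and DESeq2 also called 6 (1.52% of all genes). Without immature female 3 the 15 genes kept their direction, with a median log2 fold change of -3.49 in place of -5.52. Of the 18 genes, 6 then had an unadjusted p under 0.05, against 14.7% of all genes in either direction. With immature female 3, mature male 2 or mature male 3 left out, its group is a single library, which is assumed to vary like the libraries of the other groups, so such p-values rest on the spread of those groups.

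In males, the direction rested on 1 library. With all libraries the 15 genes were higher in mature males, with log2 fold changes from 1.19 to 2.98, and without mature male 2 all 15 were lower, from -2.88 down to -7.59. For Gene000605 the value was 1.65 with all libraries (SE 1.54, edgeR, adjusted p = 0.878) and -4.05 without mature male 2. Mature male 2 was above every immature male in all 15 genes, and mature male 3 was below every immature male in 10 of them. Without mature male 3, 7 of the 18 genes were higher at an unadjusted p under 0.05, against 5% of all genes in either direction. With all libraries the quasi-likelihood test called 0 of the 18 (0.00802% of all genes), edgeR's likelihood ratio test 0 (0.517%) and DESeq2 0 (1.03%). Only Gene001318 had an unadjusted p under 0.05 and was higher (2.78% of all genes), with 18 and 4 reads in mature males but 0, 0 and 1 read in immature males. It was also the only 1 of the 18 without overlap of the groups and higher in mature males, against 11.4% of all genes.

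**Figure D4:**
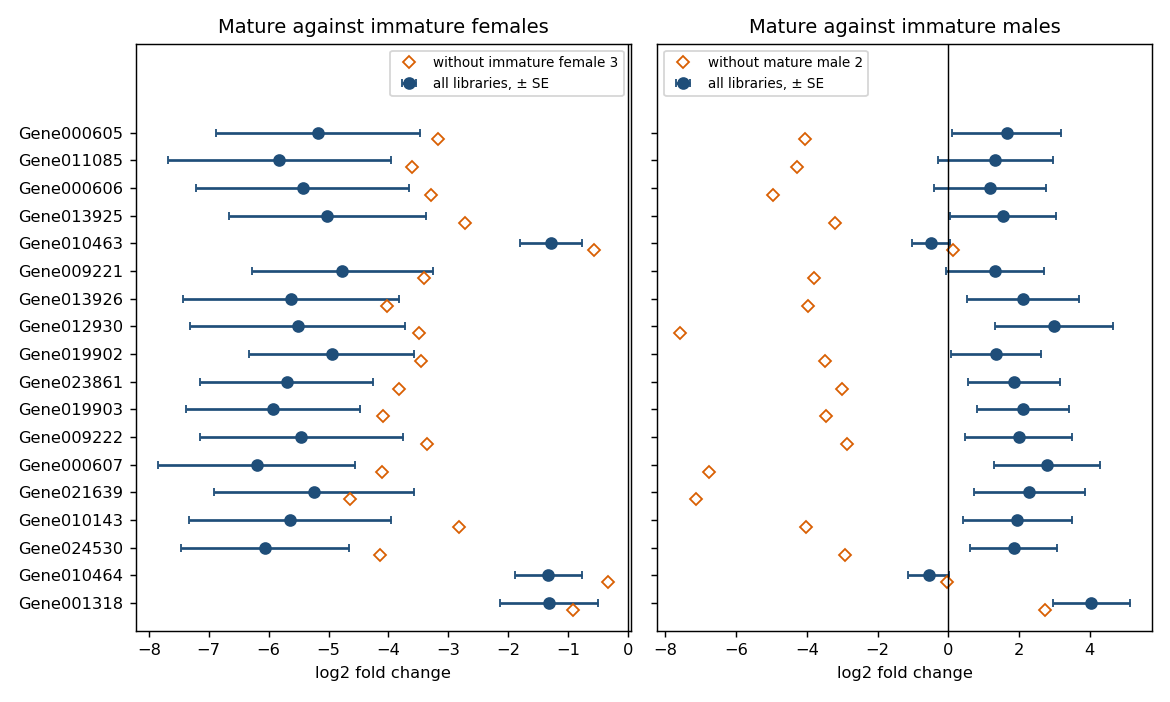
Log2 fold change of each of the 18 genes (rows, by mean level), mature against immature, in females and in males. Filled circles with bars are the estimates ± SE from all libraries, and open diamonds are the estimates without immature female 3 (females) or without mature male 2 (males), which turned the 15 genes from positive to negative values in males.

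The sexes were compared at each stage. Among immature spiders, 16 of the 18 genes were lower in every male than in every female library, against 7.6% of all genes, and the exceptions were Gene010463 and Gene010464. The median log2 fold change (male against female) was -4.40 over the 18 genes and -0.000598 over all genes. Gene000605 stood at -4.29 with an SE of 1.65 (edgeR, adjusted p = 0.748), whereas that of Gene010463 was -0.54 (SE 0.52) and became 0.16 without immature female 3. The quasi-likelihood test called 0 of the 18 genes (0.0321% of all genes). At an unadjusted p under 0.05, 16 were lower in males, against 2.8% of all genes. The likelihood ratio test called 3 (Gene019903, Gene023861 and Gene024530), against 0.566% of all genes, and DESeq2 called 4 of the 17 it tested (0.983%), the same 3 and Gene019902. Without immature female 3 the median over the 15 genes moved from -4.75 to -2.77, and 3 of the 18 genes had an unadjusted p under 0.05 (6.98% of all genes in either direction). Without immature male 1 it was 10 of the 18 (3.91% of all genes). This comparison and that of the stages in females share the 2 immature female libraries.

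Among mature spiders, mature male 2 was above every female and mature male 3 below every female in 13 of the 15 genes, so the groups overlapped, as they did in all 18 genes. Of the 24930 genes tested, 6.26% were higher in both males without overlap. The median log2 fold change was 2.51, and over the 15 genes it was 2.65 with all libraries and -3.19 without mature male 2. The quasi-likelihood test called 0 of the 18 genes (0.0401% of all genes), and 1, Gene024530, was higher in males at an unadjusted p under 0.05 (1.5%). DESeq2 called 0 (0.277%), as did the likelihood ratio test (0.181%). Without mature male 3, by contrast, 15 of the 18 had an unadjusted p under 0.05, against 3.16% of all genes, and were higher in mature male 2, then the single library of its group, than in females. An interaction term compared the stage difference of males with that of females. It was positive in all 18 genes, with a median of 7.29 on the log2 scale. The quasi-likelihood test called 0 (0% of all genes), and 16 had an unadjusted p under 0.05 in this direction (1.67%). The likelihood ratio test called 2 (0.0562%) and DESeq2 3 (0.125%). Without mature male 2, 12 of the 15 genes were positive, with a median of 1.54, and 1 of the 18 had an unadjusted p under 0.05 (2.21% of all genes in either direction). Without immature female 3 the count was 10 of the 18 (5.2% of all genes).

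Over both sexes the median log2 fold change between the stages was -1.75 for the 18 genes. Here 2 genes, Gene010463 and Gene010464, had an unadjusted p under 0.05 in the quasi-likelihood test, both lower, against 9.1% of all genes. In this comparison the quasi-likelihood test called 0 of the 18 (0% of all genes), DESeq2 called 0 (2.99%), and so did edgeR's likelihood ratio test (2.59%). Over both stages the median between the sexes was -1.03, and 0 genes had an unadjusted p under 0.05 (4.45% of all genes). The quasi-likelihood test, the likelihood ratio test and DESeq2 called 0 here, as against 0.0401%, 0.377% and 0.516% of all genes. Leaving out single libraries moved both medians. Over the 15 genes the median between the stages was -1.76 with all libraries, -4.69 without mature male 2 and -0.98 without immature female 3. That between the sexes was -1.07 with all libraries, -3.76 without mature male 2, -0.58 without mature male 3 and 0.11 without immature female 3, where 7 genes were lower and 8 higher in males. At an unadjusted p under 0.05 and without mature male 2, 15 of the 18 genes were lower in mature spiders (9.6% of all genes in either direction) and 16 were lower in males (3.31%). The groups overlapped in all 18 genes in both comparisons, while 1.91% of all genes were lower without overlap in mature spiders and 0.357% in males.

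Genes with related roles were taken from lists of annotated names. No hexamerin and no phenoloxidase was among the matches outside the 18 genes. The list of relatives held 5 genes, 4 matching phenoloxidase-activating factor 2 and 1 matching tyrosinase. The 4 were taken in by the word phenoloxidase in the name. That factor is a protein of the serine protease type that takes part in switching on phenoloxidase in insects. It is not itself a member of the haemocyanin superfamily. Gene016721 and Gene009153, the highest of the 4, ranged over the libraries from 45.3 to 118 CPM and from 3.27 to 101 CPM. Among the 17 genes for copper handling, Gene017215, a match to the copper-zinc superoxide dismutase that removes superoxide, was at 126 to 244 CPM, and Gene010119, a match to a copper-transporting ATPase, was at 41.9 to 53.5 CPM. Among the 7 genes for oxygen sensing and globins, Gene009127 (cytoglobin) was at 14 to 41.5 CPM and Gene004460 (neuroglobin) at 21.1 to 44.9 CPM. These 6 genes spanned a much narrower range than the haemocyanin genes, apart from Gene009153. On these 3 lists 0 genes passed the quasi-likelihood test in any of the 7 comparisons. The likelihood ratio test called 1, a gene of the relatives list lower in mature spiders over both sexes (2.59% of all genes in either direction). At an unadjusted p under 0.05 in females, 2 genes of the relatives list, 2 copper genes and 0 oxygen genes were lower in mature brains, and 0 were higher. Of all genes 5.88% were lower and 4.57% higher.

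The list of hemolymph proteins held 37 genes, among them vitellogenins (yolk proteins), apolipophorins (lipid carriers), ferritins (iron stores) and transferrins (iron carriers). It also held 3 matches to enzymes of pyruvate dehydrogenase regulation, taken in by the word transferring in their names. Its highest members, Gene010479 (soma ferritin) and Gene003952 (ferritin heavy chain), were at 599 to 1246 CPM and 201 to 353 CPM. In females the median log2 fold change was -0.44, and 8 genes had an unadjusted p under 0.05 and were lower in mature brains, against 5.88% of all genes. On the list 0 were higher (4.57% of all genes). The quasi-likelihood test called 0 (0% of all genes), while the likelihood ratio test called 8 lower (1.18% of all genes in either direction). In males the median was 0.10 and 0 genes had an unadjusted p under 0.05 (7.44% of all genes). Of the reads, the list took 0.298% and 0.228% in the immature females, 0.157%, 0.208% and 0.214% in the immature males, 0.111%, 0.145% and 0.154% in the mature females and 0.191% and 0.153% in the mature males. The immature females were thus the 2 highest libraries. Mature male 2, above immature female 2 in haemocyanin, here fell between the lowest and the highest immature male.

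Markers of blood cells, the source of haemocyanin in tarantulas, were 79 genes with matches such as hemocytin, clotting factors, techylectins and peroxidasins. Of the reads, they took 0.134% and 0.141% in the immature females, 0.158%, 0.126% and 0.131% in the immature males, 0.0862%, 0.0974% and 0.135% in the mature females and 0.168% and 0.11% in the mature males. Mature male 2 was the highest library and mature female 1 the lowest, and immature male 1, with low haemocyanin, was the second highest. The range between libraries was narrow beside that of haemocyanin. Across the libraries the log share of these markers had an r of 0.55 with that of haemocyanin (rho = 0.61). This r was 0.77 for hemolymph proteins, 0.75 for copper handling, -0.47 for muscle and between -0.18 and 0.35 for the other lists. Such an r is of a summed share, in which the most abundant genes weigh most. Gene by gene, the median r was 0.22 over 70 blood cell genes, 0.25 over 34 hemolymph protein genes and 0.21 over 17 copper genes. It was -0.26 for muscle, between -0.24 and 0.23 for the other lists and 0.02 over all genes. These values are a description. Between 0 and 8 of the 79 genes were at 0 reads in a library. Gene002168 (techylectin-5B) was at 172 to 414 CPM and Gene005466 (techylectin-5A) at 93.8 to 412 CPM. In females 13 of 76 tested genes had an unadjusted p under 0.05 and were lower in mature brains and 1 was higher, with a median log2 fold change of -0.92. Of all genes 5.88% were lower and 4.57% higher. In males 9 were lower (4.67% of all genes) and 2 higher (2.78%), with a median of -0.68. The quasi-likelihood test called 0 of them in any comparison. The likelihood ratio test called 2 lower for stage in females (1.18% of all genes in either direction) and 4 lower for stage over both sexes (2.59%). It called 2 higher in immature males (0.566%) and, over both stages, 1 higher and 1 lower in males (0.377%). The part of blood cells in the haemocyanin result was not tested.

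Copper handling genes took 0.0297% of the reads in mature female 1 and 0.0579% in mature male 2, and the 3 libraries with the most haemocyanin were the 3 highest. Muscle markers, 97 genes led by Gene017604 (muscle myosin heavy chain, 16584 to 46497 CPM) and Gene000515 (twitchin, 4641 to 38795 CPM), took the smallest share, 8.31%, in immature female 2 and the largest, 18%, in mature female 1. The 41 neuron genes were led by Gene000134 (synaptotagmin, 568 to 1491 CPM) and Gene010604 (glutamate decarboxylase, 256 to 934 CPM). The list of the digestive gland held 39 genes, with the highest means for Gene017787 (a chymotrypsin-like protease, 12.1 to 846 CPM) and Gene005463 (75.1 to 254 CPM). By its match, Gene005463 is a serine protease inhibitor and not a digestive protease. The list took between 0.0465% and 0.183%, with the highest value in immature female 2 and 0.053% in immature female 3. It also held the only list genes that the quasi-likelihood test called, Gene025438 and Gene013935, both matches to chymotrypsin-like digestive proteases, which were at 53.1 and 80.6 CPM and at 150.4 and 276 CPM in the mature males and under 1 CPM in all other libraries. Both mature males carried these, whichever their haemocyanin level. Cuticle genes, 155 in number and led by Gene002522 (8.06 to 989.7 CPM) and Gene000244 (11.2 to 600.4 CPM), took between 0.0619% and 1.17%, with the 3 highest values in immature male 1, mature male 2 and mature female 2. Neither the digestive gland list nor the cuticle list ordered the libraries as haemocyanin did. Whether any of these tissues has a part in the haemocyanin levels was not tested.

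**Figure D5:**
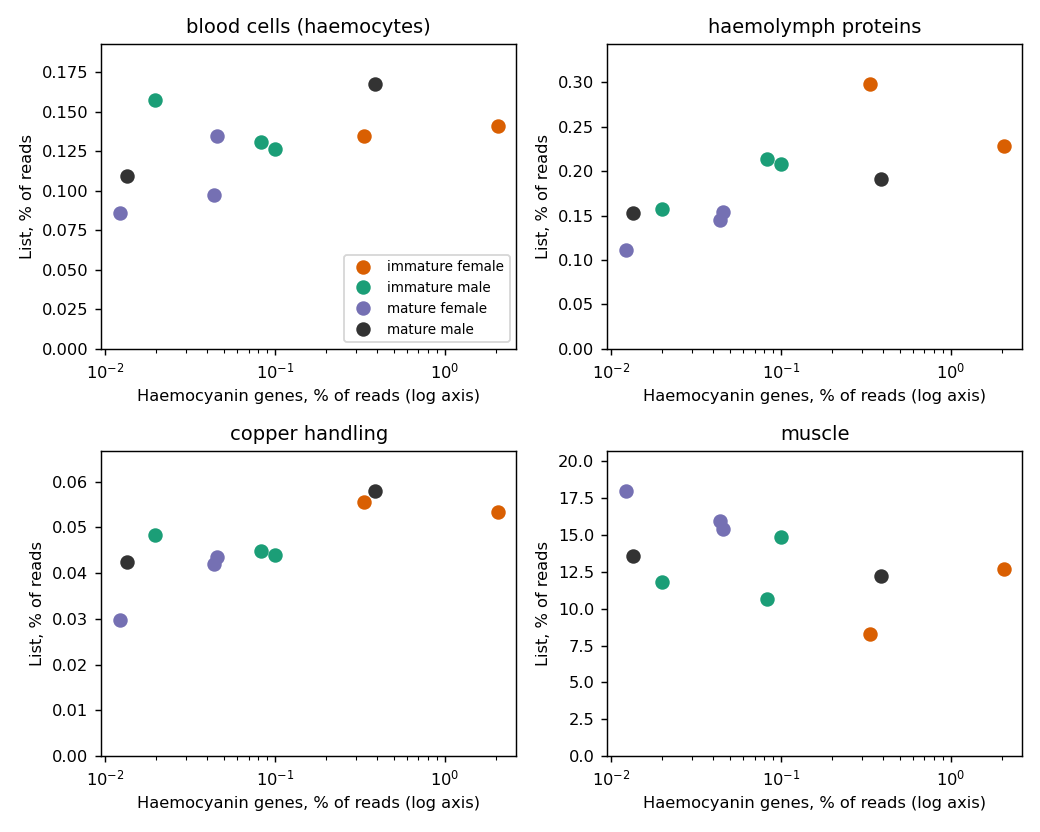
Share of reads of 4 gene lists (percent, vertical axes from 0) against the share of the 18 haemocyanin genes (percent, log axis) in the 10 libraries, colored by group. The copper handling share was highest in the 3 libraries with the most haemocyanin, the hemolymph protein share was highest in the 2 immature females and 0.191% in mature male 2, blood cell markers spanned 0.0862% to 0.168%, and muscle was at 8.31% to 18%.

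The genes whose levels most resembled the summed haemocyanin level were sought among 23846 other genes with a mean of at least 1 CPM, by Pearson's r of log2 CPM over the 10 libraries. With so many genes and only 10 libraries some high values arise in any data, and the values are a description. Only 3 genes had an r over 0.9. Gene000641, a match to vitellogenin-3, had the highest (r = 0.95, rho = 0.80) but a mean of only 1.03 CPM. It was at 0.858 and 6.89 CPM in the immature females, at 0, 0.334 and 0.234 in the immature males, at 0, 0 and 0 in the mature females, and at 1.96 and 0 in the mature males. Its counts were 63 reads in immature female 3, 21 in mature male 2, 11 in immature female 2, 2 each in immature males 2 and 3, and 0 in the other 5 libraries, mature females included. Gene003705, a match to calsequestrin-2, a calcium-binding protein of the calcium stores of muscle, followed haemocyanin at a higher level (r = 0.91, rho = 0.87). It was at 425 and 595 CPM in the immature females, at 110.2, 238 and 181 in the immature males, at 136, 131 and 193 in the mature females, and at 251 and 165 in the mature males. Gene007844, a match to the DNA repair enzyme alkB homolog 3, changed less (r = 0.91, rho = 0.82), from 51.6 to 92.5 CPM. The other 5 were Gene023769 (a match to the DNA-binding protein HEXBP), Gene013738 (a subunit of the oligomeric Golgi complex), Gene012792 (a match to a spider toxin on the opposite strand) and Gene019596 and Gene008131, which have no match, with r between 0.88 and 0.89. The lowest values belonged to Gene012718, which has no match (r = -0.96, rho = -0.98), and to Gene007536, a match to a cytosolic sulfotransferase, an enzyme that adds sulfate groups to small molecules (r = -0.95, rho = -0.95). Gene007536 was at 63.1 and 32.7 CPM in the immature females, at 181, 76.9 and 133 in the immature males, at 189.6, 158 and 103 in the mature females, and at 80.3 and 263 in the mature males. It was lowest in immature female 3 and highest in mature male 3, the reverse of Gene000605. With each library left out in turn, r of Gene007536 stayed between -0.97 and -0.91 and that of Gene003705 between 0.82 and 0.93.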

How the data were processed

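RNA from brains of individual spiders was sequenced in paired-end libraries from polyA RNA. The authors trimmed the reads with Trimmomatic, assembled them with Trinity and CAP3, predicted coding sequences, clustered these into genes and aligned the reads to them with BWA-MEM. The submitters' processing notes give Trimmomatic 0.32 and BWA 0.6.1-r104. They deposited read counts per gene and library without normalization. How multiply aligned reads, read mates and strand were treated is not given in the sources used here. An annotation table was deposited as well, with matches and positions as other, descriptive text. Entries were shifted by 1 column for 14278 of its 25943 genes (13 of the 18 haemocyanin genes among them) and were realigned.

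Counts were analyzed in R 4.3.3 with edgeR 4.0.16 and limma 3.58.1. The filter was filterByExpr (minimum count 10), leaving 24930 of 25922 genes, all 18 haemocyanin genes among them, and TMM normalization was applied. CPM is scaled by TMM. Group means of the 4 groups were fitted to all 10 libraries, and contrasts were tested by the quasi-likelihood F test, with Benjamini-Hochberg adjustment over all genes and a threshold of 0.05. The study's likelihood ratio test and DESeq2 1.42.0 were alternatives. Others were size factors by RLE, 2 other filters (none, or mean CPM of 1 or more), the replicate number as a block, and each library left out, and 3 more were added after seeing the data. The SE was taken as the size of the log2 fold change over the root of F. Genes with a mean of at least 5 CPM, at most 12, were described 1 by 1. Of each list, the 2 genes with the highest mean and called genes (at most 3) are named. Likeness names the 8 highest and 2 lowest r, with log2 CPM at a prior count of 2. Gene001318, Gene024530 and Gene010464 were added after their values were seen, and so was the set of 15 genes. Intervals and floors cover counting error only. The fitting code was checked on simulated counts with large known changes, which does not measure the power for changes in these data. Libraries are individual spiders. No column of the count table was left unused. The members and lists were chosen with earlier results of these data known.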

Additional observations from a re-analysis of the deposited data

Results flagged for a closer look

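The summed share and each of the 12 genes described 1 by 1 were examined for a library far from the rest, within each stage and within each sex (5 libraries each). In 44 of these 52 sets the extreme library lay so far from the next that the gap took more than 0.71 of the whole range. This is Dixon's critical value, which assumes draws from a single normal distribution. Each set here mixed different groups, and CPM and percent were not on a log scale. How many sets would pass by chance is therefore not known, and the flags are a description. The measures are not independent, since the genes rise and fall together. Of the 44, 25 were immature female 3 and 19 were mature male 2.

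The summed haemocyanin share stood apart in immature female 3 (2.05% of reads, among immature and among female libraries) and in mature male 2 (0.39% of reads, among mature and among male libraries). Gene000605 did so with 15142 CPM and 2743 CPM in these libraries. In immature female 3, levels that stood apart were 1171 CPM for Gene011085, 1075 CPM for Gene000606, 749.7 CPM for Gene013925, 327 CPM for Gene009221, 281 CPM for Gene013926, 288 CPM for Gene012930, 222 CPM for Gene019902, 208 CPM for Gene023861, 165 CPM for Gene019903 and 148 CPM for Gene009222. In mature male 2 they were 198 CPM for Gene011085, 175 CPM for Gene000606, 124 CPM for Gene013925, 58 CPM for Gene009221, 70.6 CPM for Gene013926, 45.8 CPM for Gene012930, 24.1 CPM for Gene019902, 24.6 CPM for Gene023861, 20.5 CPM for Gene019903 and 30.02 CPM for Gene009222. Gene010463 stood apart among female libraries only, with 169 CPM in immature female 3. No explanation was tested.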

How the results depend on the processing

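The quasi-likelihood test called 0 of the 18 genes in each of the 7 comparisons under size factors by RLE, without a filter, with a filter on mean CPM, with the newer dispersion estimate and with any library left out. Without immature male 2 it called 292 of all genes for stage over both sexes and 135 for sex in immature spiders. For stage in males it then called 112. With all libraries these counts were 0, 8 and 2. The likelihood ratio test of edgeR called 6 for stage in females (1.18% of all genes) and 3 for sex in immature spiders (0.566%). For the interaction it called 2 (0.0562%). In the same order, DESeq2 called 6 (1.52%), 4 of the 17 it tested (0.983%) and 3 (0.125%). The reason for this difference between tests was not tested. With each library left out, the log2 fold change of Gene000605 ran from -5.99 to -3.18 for stage in females, from -5.13 to -2.30 for sex in immature spiders, from -4.05 to 2.63 for stage in males, from -3.19 to 3.51 for sex in mature spiders, from -4.61 to -0.77 for stage over both sexes, from -3.75 to 0.12 for sex over both stages and from 1.12 to 7.81 for the interaction. The sign turned without mature male 2 for stage in males and sex in mature spiders, and without immature female 3 for sex over both stages. That of Gene010463 for sex in immature spiders ran from -1.05 to 0.16, the positive value being without immature female 3. Without both of these libraries, chosen after seeing the data, Gene000605 was at -4.10 for stage in males, -3.21 for sex in mature spiders and -0.92 for the interaction, and Gene010463 at 0.16 for sex in immature spiders. Depth limits Gene001318, with 57 reads, and the genes with counts of 0.

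The labels do not say that a replicate number marks anything shared. Deviations from the group means had an r over 0.1 in 5 of 13 pairs with the same number (range -0.36 to 0.30, median 0.09). Among pairs with different numbers it was 7 of 24 (range -0.18 to 0.36, median -0.01). The numbers were not used as pairs. The 7 same-numbered pairs without an immature female were all positive (0.09 to 0.30), and 1 of the 6 with one was positive. Without an immature female, pairs with different numbers ran from -0.18 to 0.07, below every same-numbered pair. Whether a batch goes with the number was not tested. Deviations of the immature females mirror each other, as do those of the mature males, so the pairs are not independent. With the replicate block 0 of the 18 genes were called in each comparison, against 0 to 31 of all genes. The log2 fold change of Gene000605 for stage in females was then -4.67.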
